A study of Mus musculus with 4 samples.

Results

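The nuclear subunit genes of oxidative phosphorylation were taken from the gene list of the deposited count matrices by symbol: Ndufa, Ndufb, Ndufc, Ndufs and Ndufv for complex I, Sdha to Sdhd for complex II, Uqcr for complex III, Cox4i, Cox5, Cox6, Cox7 and Cox8 for complex IV, and Atp5 for complex V. Names holding Gm, Rik, -ps or Ndufaf were left out. This gave 85 members of 32286 features, of which 38 belong to complex I, 4 to complex II, 8 to complex III, 18 to complex IV and 17 to complex V. The counts come from single-cell RNA sequencing of brain cells from mice of the genotype Tmem119-2A-CreERT2;Ai6, which all groups share. In these mice a Cre recombinase made from the microglial gene Tmem119, and active only once tamoxifen is given, switches on the fluorescent protein ZsGreen. The groups are female stroke and male stroke mice, whose right middle cerebral artery was permanently ligated, and female sham and male sham mice, which had the surgery without the ligation. The hemisphere of the operated side was taken on day 3, the mice's age is not given in the labels, and live ZsGreen+ cells were sorted before droplet capture with the 10x Genomics 3′ v3.1 kit. Each pool held the cells of 4 mice, and there was 1 pool for each sex and treatment.

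Oxidative phosphorylation is the last stage of respiration. Complexes I and II pass electrons to ubiquinone, complex III passes them on to cytochrome c, and complex IV gives them to oxygen, while the protons pumped by complexes I, III and IV drive ATP synthesis by complex V. Most subunits are encoded in the nucleus and imported, and a few that lie at the core of complexes I, III, IV and V are encoded in mitochondrial DNA, so a complex needs products of both genomes. Macrophages, microglia included, are known to shift between respiration and glycolysis when activated, and several complex IV subunits have isoforms that replace each other by tissue or by oxygen supply.

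The pools held 5931 barcodes in female stroke, 4944 in male stroke, 4562 in female sham and 5000 in male sham, with 29581392 to 66072270 unique molecular identifiers (UMIs) each. The male sham pool held no shallow cells: its lowest barcode had 4198 UMIs, against 500 or 501 in the other 3 pools. After quality control 18045 of 20437 barcodes were kept. The limit of 10% mitochondrially encoded UMIs left out 13.96% of barcodes in female stroke and 15.07% in male stroke, against 9.21% in female sham and 0.84% in male sham. The microglia-like cells, identified by P2ry12, Tmem119 and other markers, numbered 2922 in female stroke and 2749 in male stroke, against 3183 in female sham and 4014 in male sham. Their median depth was 7933 and 7913 UMIs per cell in the stroke pools, against 6179 in female sham and 5422.5 in male sham. Of 10 microglial markers 9 were lower in both stroke pools than in both sham pools, with summed levels of 17482 and 18459 unscaled CPM (a gene's UMIs over all UMIs of the same cells, in counts per 1e6) in the stroke pools, against 29275 and 27747 in the sham pools. A cluster led by Spp1, Fn1 and Ch25h, with 561 and 513 cells in the stroke pools against 1 and 8 in the sham pools, did not pass the naming rule and was kept apart. Across pools 43 barcode sequences were shared, which touches 76 of the kept cells.

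In microglia-like cells, almost all nuclear members were higher after stroke, and those of complexes IV and V by the largest median. Counts were summed per pool and tested with edgeR's quasi-likelihood test for stroke over sham with sex as a term, Benjamini-Hochberg adjusted over all 13948 tested genes. Of the 85 members 82 passed the filter on low counts, and 75 of these were higher, 1 was lower (Cox8b) and 6 were not called. Over all tested genes 22.7% were called higher and 21.8% lower. The median log2 change was 0.79 over the 82 members and -0.04 over all tested genes. In 79 of the 82 members both stroke pools lay above both sham pools, which 34.5% of all tested genes did; the 3 exceptions were Cox8b, Ndufs3 and Ndufs7. Members made up 1.88% and 1.86% of microglia-like UMIs in female and male stroke, against 1.20% and 1.34% in female and male sham. The mean was 1.87% ± 0.0131 after stroke and 1.27% ± 0.102 in sham (SD, n = 2 pools each, one pool per sex). With 2 pools a group no exact test of these shares can reach a p below the usual threshold, so none is given.

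Other abundant gene families and the state of the cells moved with the members. Cytosolic ribosomal protein genes took 13.7% of UMIs in both stroke pools, against 8.64% and 9.03% in the sham pools. All 6 cell cycle markers were higher in both stroke pools, at a summed 1260 and 1083 CPM of unscaled totals, against 62.2 and 90.4 in the sham pools. Of 12 monocyte-derived macrophage markers 10 were higher in both stroke pools, at a summed 1168 and 1097 CPM, against 586 and 516. When every cell was thinned to 3000 UMIs, a cell held a median of 49 and 47 member UMIs in the stroke pools, against 35 and 39 in the sham pools. Thinned and without cells that held 3 or more cell cycle UMIs, 53 of 80 tested members were higher and the median log2 change was 0.47. Over all 11675 genes tested there, 1364 were higher and 900 lower. When counts were also scaled by library totals instead of TMM, a setting chosen after seeing the data, 32 members were higher and the median was 0.24. Over all genes 803 were then higher and 2895 lower. In the full set of microglia-like cells, library totals moved the median of all genes to -0.30. The calls over all genes moved to 2046 higher and 5643 lower, against 3170 and 3041 with TMM scaling. Relative to the median of all genes the members stood 0.83 higher under both scalings, and 0.49 higher in the thinned cells without cycling cells under both. A change of scaling shifts all genes by nearly the same amount, so this likeness between scalings was fixed in advance. It does not show how firm the members' change is. The part of these measures in the members' change was not tested.

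**Figure D1:**
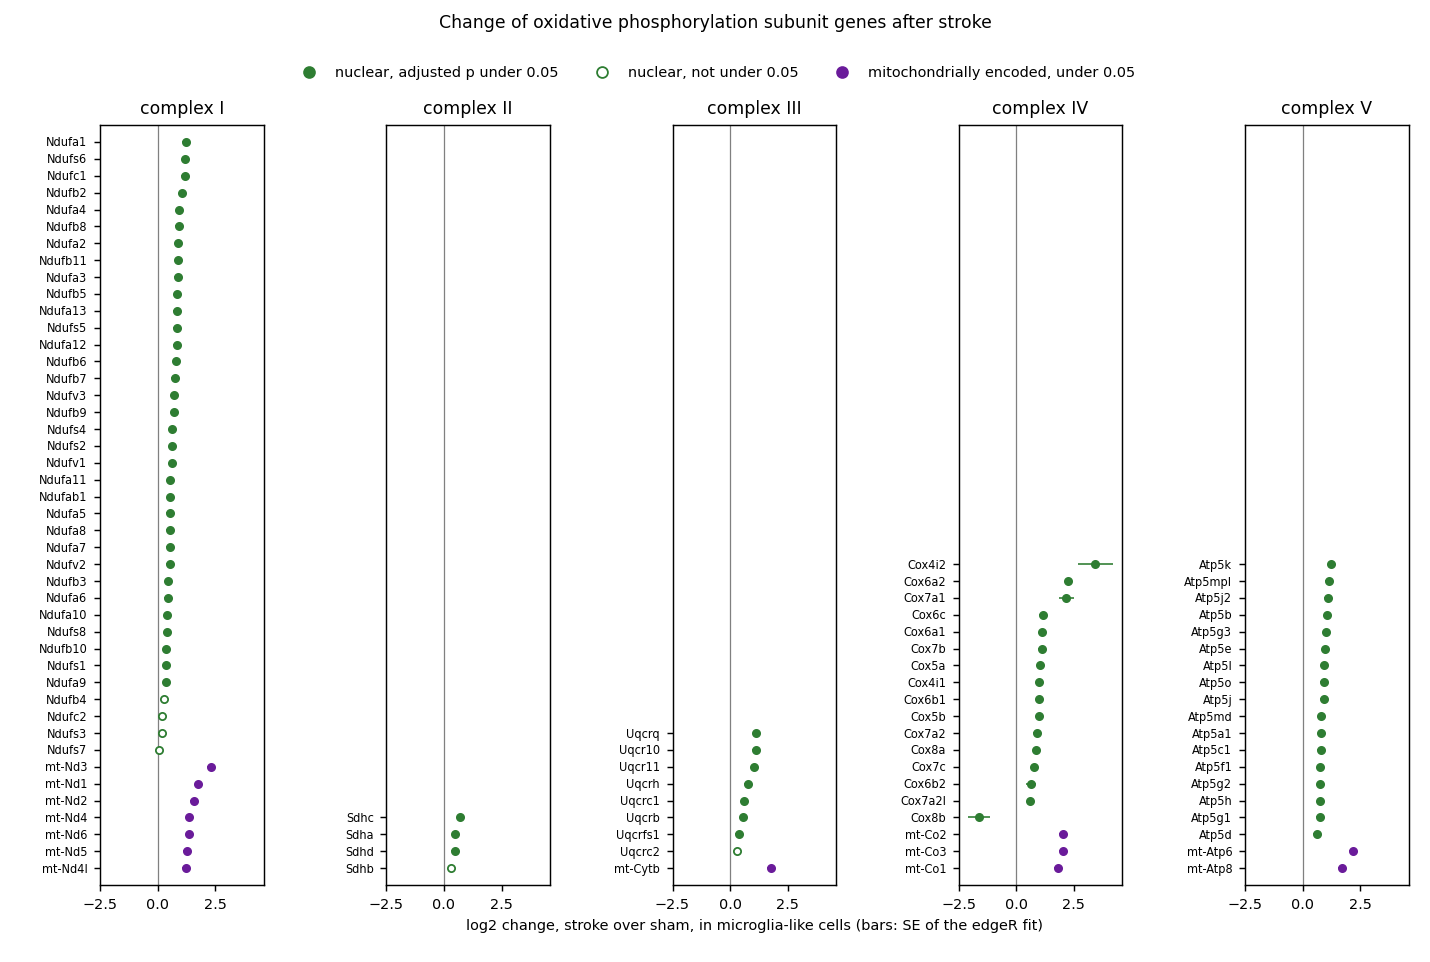
Log2 change of stroke over sham in microglia-like cells for each tested nuclear member and each mitochondrially encoded subunit gene, 1 panel per complex, with the SE of the edgeR fit as bars. Filled points have an adjusted p under 0.05; of the nuclear members only Cox8b lies left of 0, and 6 members are drawn open.

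Complex I, the NADH dehydrogenase, had 33 of 37 tested members higher, none lower, and a median log2 change of 0.62. Its 7 nuclear core subunits, among them those that carry the flavin and the iron-sulfur clusters, had 5 higher and a median of 0.42. The 30 other tested members, counted by symbol and with Ndufa4 among them, had 28 higher and a median of 0.72. The largest change was that of Ndufa1, a small accessory subunit of the membrane arm, with 239 and 256 TMM-scaled CPM in female and male stroke, against 101 and 112 in female and male sham. Both stroke pools stood clear above both sham pools, with a log2 change of 1.21 ± 0.15 (SE; edgeR adjusted p = 2.91e-15). Ndufs6, a zinc-binding accessory subunit of the matrix arm, had 145 and 144 CPM in the stroke pools, against 66.6 and 60.4 in the sham pools, a log2 change of 1.19 ± 0.14 (edgeR adjusted p = 4.82e-15). Ndufc1, a small membrane subunit, had 217 and 219 CPM after stroke, against 86.8 and 107 in sham, with a log2 change of 1.18 ± 0.15 (edgeR adjusted p = 1.92e-14). In all 3 the lower stroke pool was well above the higher sham pool.

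The complex I members at the other end included 2 core subunits. Ndufs7, a core subunit next to the ubiquinone site, had 114 and 117 CPM in the stroke pools, against 92.5 in female sham and 132 in male sham. The sham pools lay on either side of the stroke pools, and the log2 change was 0.07 ± 0.14 (edgeR adjusted p = 0.743). Ndufs3, another core subunit of the matrix arm, had 94.4 and 99.6 CPM after stroke, against 76.1 and 96.4 in sham, with overlapping groups and a log2 change of 0.18 (edgeR adjusted p = 0.314). Ndufc2, an accessory subunit of the membrane arm, had 255 and 253 CPM after stroke, against 201 and 242 in sham, and a log2 change of 0.20 (edgeR adjusted p = 0.257). With library totals in place of TMM these 3 had negative log2 changes. Ndufb4, the fourth complex I member not called, had a log2 change of 0.29 (edgeR adjusted p = 0.0929). Ndufa11, an accessory subunit of the membrane arm, had 132 and 122 CPM after stroke, against 76.0 and 99.9 in sham, a log2 change of 0.54 (edgeR adjusted p = 0.000701). Its call was lost under library totals (log2 0.28), thinned (log2 0.20) and without female stroke (log2 0.48), and it turned to -0.15 in thinned cells without cycling cells under library totals. Here and below, every fit that left out a pool also lacked the sex term and kept a single pool in that treatment. A call lost in such a fit cannot be laid to the pool alone. Ndufa4, named after complex I and since assigned to complex IV, had 443 and 444 CPM after stroke, against 216 and 248 in sham, with a log2 change of 0.94 (edgeR adjusted p = 5.72e-09).

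Complex II, succinate dehydrogenase, belongs to the citric acid cycle as well and has no subunit in mitochondrial DNA. It had the smallest median log2 change of the 5 complexes, 0.47, with 3 of 4 members higher. Sdhc, a membrane anchor, had 81.9 and 78.1 CPM after stroke, against 49.9 and 47.3 in sham, with a log2 change of 0.72 ± 0.14 (edgeR adjusted p = 3.29e-06). Sdha, the flavoprotein, had 116 and 110 CPM after stroke, against 88.7 and 74.7 in sham, and a log2 change of 0.48 (edgeR adjusted p = 0.00297). Sdhd, the other anchor, had 92.9 and 87.6 CPM after stroke, against 63.2 and 67.3 in sham, and a log2 change of 0.47 (edgeR adjusted p = 0.00344). The groups of these 3 were apart. The calls of Sdha and Sdhd were lost under library totals (log2 0.22 and 0.21) and without either stroke pool, and that of Sdhd also in thinned cells (log2 0.32). Sdhb, the iron-sulfur subunit, had 132 and 130 CPM after stroke, against 88.2 in female sham and 123.3 in male sham, so that male sham lay close to the stroke pools, and it missed the threshold (log2 change 0.33, edgeR adjusted p = 0.0509). Sdhd turned to -0.07 and Sdhb to -0.20 in thinned cells without cycling cells under library totals.

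Complex III had 7 of 8 members higher and a median log2 change of 0.69, and its small subunits changed most. Uqcrq, a small membrane subunit, had 372 and 354 CPM after stroke, against 149 and 187 in sham, with a log2 change of 1.12 ± 0.15 (edgeR adjusted p = 1.16e-12). Uqcr10, a small subunit beside the Rieske protein, had 280 and 282 CPM after stroke, against 123.1 and 138 in sham, a log2 change of 1.11 (edgeR adjusted p = 7.5e-13). Uqcr11, the smallest subunit, had 366 and 352 CPM after stroke, against 158 and 194 in sham, a log2 change of 1.03 (edgeR adjusted p = 6.44e-11). In these 3 both stroke pools stood well above both sham pools. Uqcrb, which lies at the ubiquinone site, changed less, with 286 and 292 CPM after stroke, against 181 and 213 in sham and a log2 change of 0.56 (edgeR adjusted p = 0.000649), a call lost under library totals (log2 0.30), thinning (log2 0.33) and without either stroke pool. Uqcrfs1, the Rieske iron-sulfur protein, had 94 and 86.9 CPM after stroke, against 58.7 in female sham and 83.6 in male sham, a log2 change of 0.37 (edgeR adjusted p = 0.0257). That call was lost under library totals (log2 0.11), DESeq2, no sex term (log2 0.35), a mitochondrial limit of 5% (log2 0.30), thinning (log2 0.18) and thinning without cycling cells (log2 0.09). It was also lost without female stroke (log2 0.30), male stroke (log2 0.41) or female sham (log2 0.11). Uqcrc2, a core protein, had 104 and 105 CPM after stroke, against 80.0 and 88.6 in sham, and was not called (log2 change 0.31, edgeR adjusted p = 0.061). Uqcrb, Uqcrfs1 and Uqcrc2 turned to -0.07, -0.13 and -0.10 in thinned cells without cycling cells under library totals.

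Complex IV, cytochrome c oxidase, had 15 of 16 tested members higher and 1 lower, with a median log2 change of 1.0. Its 11 tested members that are not tissue-restricted isoforms were all higher, at 0.61 to 1.15. Cox4i1, the general form of subunit 4, had 893 and 860 CPM after stroke, against 400 and 481 in sham, a log2 change of 1.0 (edgeR adjusted p = 1.65e-09). Cox6a1, the general form of its subunit, had 283 and 285 CPM after stroke, against 125 and 136 in sham, a log2 change of 1.12 (edgeR adjusted p = 5.68e-13). Both had their groups well apart. The general forms Cox6b1, Cox7a2 and Cox8a had log2 changes of 1.0, 0.88 and 0.86, Cox7b one of 1.10, and Cox6c the highest of the 11 at 1.15. The smallest change among the 11 was that of Cox7a2l, which joins complexes III and IV into supercomplexes, with 337 and 334 CPM after stroke, against 224 and 217 in sham and a log2 change of 0.61 (edgeR adjusted p = 0.000213). That call was lost without female stroke and the sex term, at a log2 change that stayed at 0.61.

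Of the 5 tested isoforms known from heart, muscle, lung or testis 4 were called higher and 1 lower, with a median log2 change of 2.17. Cox6a2, the form of heart and skeletal muscle, had 57.2 and 57.6 CPM in the stroke pools, against 10.4 in female sham and 13.9 in male sham. Each stroke pool was over 4-fold above either sham pool, the log2 change was 2.25 ± 0.16 (edgeR adjusted p = 1.03e-44), and the counts behind it were 1603 and 1494 UMIs after stroke against 234 and 355 in sham. Cox6a2 lies at chr7:128205435-128206387 on the minus strand of mm10, within the bounds of Itgad on the plus strand. Itgad itself had 10 and 2 UMIs after stroke against 2 in each sham pool. Cox7a1, also a heart and muscle form, had 4.21 and 4.66 CPM after stroke, against 1.02 and 0.941 in sham, with 118 and 121 UMIs against 23 and 24 and a log2 change of 2.17 ± 0.31 (edgeR adjusted p = 6.66e-11). Cox6b2, known from testis, had 7.17 and 6.36 CPM after stroke, against 4.72 and 3.96 in sham, a log2 change of 0.64 ± 0.22 (edgeR adjusted p = 0.0111). All 3 had both stroke pools above both sham pools. The call of Cox6b2 was lost under library totals (log2 0.39), DESeq2, a mitochondrial limit of 5%, thinning (log2 0.44), thinning without cycling cells (log2 0.38, and 0.15 with library totals as well), the Spp1 cluster added (log2 0.38) and without either stroke pool (log2 0.56 without female stroke, 0.74 without male stroke). Cox4i2, the form that rises at low oxygen in lung and some other tissues, rested on 23 and 16 UMIs after stroke, against 3 in female sham and 0 in male sham. The ratio of the pooled levels was 9.69, with a counting interval of 3.08 to 49.0 that covers counting error only, and DESeq2 did not call it.

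Cox8b, the form of heart, muscle and brown fat, was the one member called lower. It had 0.499 and 0.308 CPM after stroke, against 0.757 in female sham and 1.88 in male sham, from 14 and 8 UMIs against 17 and 48. The log2 change was -1.61 ± 0.47 (edgeR adjusted p = 0.00228), the groups were apart, and male sham stood far above the other pools. DESeq2 did not call it, leaving out the male stroke pool (log2 -1.40) or the male sham pool (log2 -0.84) ended the call, and thinned to 3000 UMIs it was under the filter on low counts. Choroid plexus or ependymal-like cells held Cox8b at 1155 and 932 CPM of unscaled totals in the stroke pools, against 913 and 1067 in the sham pools, and their number was 100 and 46 cells in the stroke pools, against 111 in female sham and 537 in male sham. Of 10 choroid plexus and ependymal markers 7 were lower in both stroke pools within the microglia-like sums, at a summed 183 and 121 CPM of unscaled totals, against 581 in female sham and 1684 in male sham. Ttr made up most of this sum, with 169 and 113 CPM against 545 and 1616, and Tmem212 was at 0 in all pools. The part of such RNA in the Cox8b result was not tested.

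Cox8c and Cox7b2, both known from testis, had no UMI in microglia-like cells, and Ndufa4l2, a relative of Ndufa4, had 1; these 3 members were not tested. AA467197, the mouse counterpart of a protein that takes the place of Ndufa4 in complex IV of activated human macrophages, is not a member and had 33 and 20 UMIs in the stroke pools, against 1 in each sham pool.

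**Figure D2:**
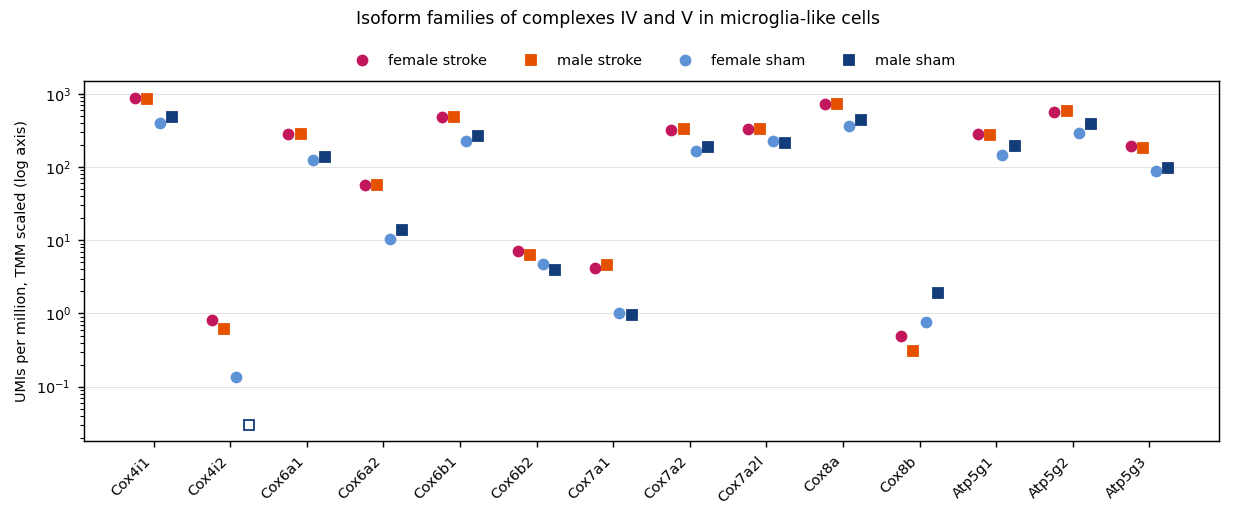
Level of the isoforms of complexes IV and V in microglia-like cells, in TMM-scaled CPM on a log axis, 1 point per pool; the open square is the male sham pool of Cox4i2, which had no UMI and is drawn at the bottom. Cox6a2 and Cox7a1 show the widest gaps between stroke and sham pools among isoforms with over 100 UMIs in each stroke pool, and Cox8b runs the other way.

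Complex V, the ATP synthase, had all 17 members higher and a median log2 change of 0.91. The accessory subunits of the membrane part changed most, with a median of 1.08 over 5 genes, against 0.80 over the 5 genes of the F1 head and central stalk, 0.84 over 4 of the peripheral stalk and 0.76 over the 3 genes of the c-ring. Atp5k, subunit e, had 328 and 333 CPM after stroke, against 139 and 142 in sham, a log2 change of 1.24 ± 0.15 (edgeR adjusted p = 2.04e-15). Atp5mpl, a small proteolipid of the membrane part, had 323 and 322 CPM after stroke, against 137 and 156 in sham, a log2 change of 1.14 (edgeR adjusted p = 3.15e-13). Atp5j2, subunit f, had 478 and 481 CPM after stroke, against 214 and 239 in sham, a log2 change of 1.08 (edgeR adjusted p = 1.4e-11). In each of these the stroke pools lay close together and far above the sham pools. The least changed was Atp5d, the delta subunit of the central stalk, with 239 and 233 CPM after stroke, against 128 in female sham and 187 in male sham and a log2 change of 0.61 (edgeR adjusted p = 0.000154), a call lost without female stroke (log2 0.58) and in thinned cells without cycling cells (log2 0.34). Atp5h, subunit d of the peripheral stalk, had 376 and 374 CPM after stroke, against 207 and 239 in sham, a log2 change of 0.75 (edgeR adjusted p = 3.14e-06). The genes of the c-ring encode the same mature protein. Atp5g3 had 195 and 182 CPM after stroke, against 89.7 and 97.0 in sham, a log2 change of 1.02 (edgeR adjusted p = 4.07e-11), while Atp5g2 and Atp5g1 had log2 changes of 0.76 and 0.74, and Atp5g1 fell to the level of no change in thinned cells without cycling cells under library totals.

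The promoters of the members were then described, since nuclear respiratory factor 1 (NRF1) and the ETS family factor GABP are the best known activators of these genes. RefSeq promoter windows on GRCm38.p6 were found for 67 members and for 16478 protein-coding genes. The 250 bases before the start were searched on both strands for GCGCNTGCG (NRF1), CCGGAAG (ETS family) and AAGATGGCG (YY1). The NRF1 letters were in 15 of 67 member promoters (22.39%), against 7.634% of all, and the ETS letters in 11 (16.42%), against 9.546%. The YY1 letters were in none of the members' windows, against 0.7161% of all. Atp5h, Atp5l, Cox6a1 and Sdhd held both NRF1 and ETS letters, 5.97% of members against 1.135% of all. The windows of these 4 are printed with the NRF1 and ETS matches in capitals, to show how the letters lie, next to those of the isoforms Cox7a1 and Cox8b, which hold neither and moved in opposite directions. Each is written 5′ to 3′ on the strand of the gene, at chr5:115348959-115349208 minus (Cox6a1), chr11:115419920-115420169 minus (Atp5h), chr9:44920743-44920992 minus (Atp5l), chr9:50603850-50604099 minus (Sdhd), chr7:30183921-30184170 plus (Cox7a1) and chr7:140900447-140900696 minus (Cox8b).
Cox6a1: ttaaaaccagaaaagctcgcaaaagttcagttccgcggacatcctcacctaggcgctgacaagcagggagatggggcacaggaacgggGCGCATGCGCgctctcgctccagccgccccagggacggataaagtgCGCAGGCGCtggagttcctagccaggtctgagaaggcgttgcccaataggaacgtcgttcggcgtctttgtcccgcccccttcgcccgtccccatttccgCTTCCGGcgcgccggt
Atp5h: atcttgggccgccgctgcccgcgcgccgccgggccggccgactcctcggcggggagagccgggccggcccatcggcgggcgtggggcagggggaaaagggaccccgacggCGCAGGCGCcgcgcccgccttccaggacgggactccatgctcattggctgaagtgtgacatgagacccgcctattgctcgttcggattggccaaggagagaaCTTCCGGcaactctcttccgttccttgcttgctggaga
Atp5l: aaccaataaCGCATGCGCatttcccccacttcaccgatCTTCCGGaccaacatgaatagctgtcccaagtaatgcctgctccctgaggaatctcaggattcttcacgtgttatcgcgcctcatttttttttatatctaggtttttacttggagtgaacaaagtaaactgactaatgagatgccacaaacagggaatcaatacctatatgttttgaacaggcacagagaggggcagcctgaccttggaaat
Sdhd: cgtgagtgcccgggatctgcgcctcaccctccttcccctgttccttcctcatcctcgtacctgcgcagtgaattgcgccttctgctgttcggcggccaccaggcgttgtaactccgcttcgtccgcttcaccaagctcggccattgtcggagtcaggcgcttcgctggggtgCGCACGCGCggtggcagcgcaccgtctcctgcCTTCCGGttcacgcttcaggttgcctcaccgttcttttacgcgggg
Cox7a1: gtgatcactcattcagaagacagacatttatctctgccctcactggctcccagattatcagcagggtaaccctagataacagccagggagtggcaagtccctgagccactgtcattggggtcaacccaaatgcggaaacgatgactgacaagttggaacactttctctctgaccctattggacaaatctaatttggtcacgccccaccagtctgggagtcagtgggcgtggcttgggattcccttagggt
Cox8b: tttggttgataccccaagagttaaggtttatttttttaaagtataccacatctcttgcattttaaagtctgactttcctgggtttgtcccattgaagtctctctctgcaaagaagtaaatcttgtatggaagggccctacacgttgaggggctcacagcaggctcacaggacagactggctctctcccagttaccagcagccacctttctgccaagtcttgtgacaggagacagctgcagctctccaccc
The 15 members with the NRF1 letters had a median log2 change of 0.75 after stroke in microglia-like cells, and the 51 tested members without them 0.79. For the ETS letters the medians were 0.80 over 11 members with them and 0.76 over 55 without. A match here describes letters, not binding.

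The 13 subunit genes of mitochondrial DNA were all higher after stroke, with a median log2 change of 1.76, against 0.79 over the nuclear members. mt-Atp6, subunit a of complex V, had 9710 and 8988 CPM in female and male stroke, against 2952 in female sham and 1447 in male sham, a log2 change of 2.18 ± 0.17 (edgeR adjusted p = 2.42e-36). The largest change was that of mt-Nd3 of complex I, with 2324 and 2121 CPM after stroke, against 721 and 277 in sham and a log2 change of 2.31 ± 0.17 (edgeR adjusted p = 5.03e-41). The smallest was that of mt-Nd4l, also of complex I, at 1.22 ± 0.15 (edgeR adjusted p = 2.3e-14). Between them lay, in falling order, mt-Co2 (2.03), mt-Co3 (2.02) and mt-Co1 (1.80) of complex IV, mt-Cytb of complex III and mt-Nd1 of complex I (1.76 each), mt-Atp8 of complex V (1.71), and mt-Nd2 (1.56), mt-Nd4 (1.37), mt-Nd6 (1.37) and mt-Nd5 (1.26) of complex I. In mt-Atp6 and mt-Nd3 the stroke pools lay close together and male sham was the lowest pool. The members' UMIs per mitochondrially encoded UMI were 0.354 and 0.372 in female and male stroke, against 0.532 in female sham and 1.05 in male sham. The ratio fell in every complex with subunits in both genomes. For complex I it was 0.431 and 0.459 after stroke, against 0.614 and 1.18 in sham, for complex III 0.325 and 0.331 against 0.477 and 0.829, for complex IV 0.198 and 0.208 against 0.290 and 0.573, and for complex V 0.621 and 0.664 against 0.990 and 2.38. Male sham was the highest pool each time, and the stroke pools lay close together. The limit of 10% on the mitochondrial share acts on these genes directly, and with a limit of 5% their median log2 change was 1.15. At that limit the members' UMIs per mitochondrially encoded UMI were 0.499 and 0.501 in female and male stroke, against 0.558 in female sham and 1.05 in male sham. Female sham then lay close to the stroke pools.

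Cells of like mitochondrial share were compared, with member UMIs taken as a percentage of all other UMIs than the mitochondrially encoded ones. At a mitochondrial share of 2% to 5% the members stood at 1.87% in female stroke and 1.83% in male stroke cells, against 1.28% in female sham and 1.49% in male sham cells, which is 1.47 times the sham value in females and 1.23 times in males. At 1% to 2% the ratios were 1.30 in females and 1.11 in males. Below 1% they were 1.37 in females, from 60 stroke and 283 sham cells, and 0.985 in males, from 86 stroke and 1358 sham cells. In the male pools the excess after stroke was thus not seen in the cells of the lowest mitochondrial share.

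The rise of the nuclear members was then followed within clusters of microglia-like cells. For this the cells were clustered again without the members, the mitochondrially encoded and the ribosomal protein genes, and counts were summed per cluster and pool, a comparison added after the data were seen. This gave 8 microglia-like clusters. The 4 with P2ry12 among their 3 leading genes held 660 and 689 stroke cells, against 2904 and 3639 sham cells, and the other 4 held 2280 and 2082 stroke cells, against 263 and 360 sham cells. In 6 of the 8 clusters every pool had at least 20 cells, so that edgeR could be fitted as before.

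In the 3 tested P2ry12-led clusters few nuclear members were called, and all 13 mitochondrially encoded genes were higher. An unadjusted p under 0.05, in either direction, was found for 10 of 79, 22 of 78 and 25 of 78 members, in the order given below. Over all genes the counts were 1034 of 10197, 1469 of 8880 and 1309 of 9114. In the cluster led by P2ry12, Gpr34 and Slc2a5 the members made up 1.31% and 1.26% of UMIs in stroke cells, against 1.27% and 1.33% in sham cells, and the pools overlapped. There 1 of 79 tested members was higher (Ndufa1), against 1.08% of all 10197 tested genes, and none was lower, against 0.255%, the members' median log2 change was 0.02, and all 13 mitochondrially encoded genes were higher with a median of 1.11. In the cluster led by Fos, P2ry12 and Fosb the shares were 1.30% and 1.32% in stroke cells, against 1.26% and 1.32% in sham cells. In it 2 of 78 members were higher (Ndufa1 and Cox7a2l; 3.12% of all genes) and 1 was lower (Ndufs7, log2 change -0.62 ± 0.16, edgeR adjusted p = 0.0062; 1.33% of all genes), with a members' median of 0.07 and a mitochondrially encoded median of 1.26 over 13 higher genes. In the cluster led by P2ry12, Gpr34 and Siglech the shares were 1.31% and 1.16% in stroke cells, against 1.15% in both sham pools, 6 of 78 members were higher (2.82% of all genes) and none lower (0.406% of all genes), the median was 0.21, and all 13 mitochondrially encoded genes were higher with a median of 1.19. The fourth such cluster, led by P2ry12, Slc2a5 and Cx3cr1, had too few male sham cells for a fit; its members' share was 1.17% and 0.975% in the stroke pools, against 1.09% in female sham.

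Among the clusters not led by P2ry12, the one led by Cxcl10 had the largest count of members called. In the cluster led by Sparc, Ctsl and Olfml3, which held more stroke cells than any other, they made up 1.79% and 1.74% of UMIs in stroke cells, against 1.49% and 1.65% in sham cells. There 5 of 80 members were higher (2.99% of all genes), namely Ndufs6, Atp5k, Ndufc1, Ndufv3 and Atp5c1, and none lower (2.42% of all genes), with a median of 0.26, and all 13 mitochondrially encoded genes with a median of 1.33. Of the 80 members 28 had an unadjusted p under 0.05 in either direction, against 1918 of 11217 genes. The cluster led by the interferon-induced genes Cxcl10, Ifit3 and Ifit2 stood out, with shares of 1.92% and 1.91% in stroke cells, against 1.25% and 1.34% in sham cells. In it 52 of 79 members were higher (7.19% of all genes) and none lower (3.14% of all genes), with a median of 0.72, and the 13 mitochondrially encoded genes were higher with a median of 1.68. This cluster rests on 40 female sham and 61 male sham cells, against 289 and 360 stroke cells, and P2ry12 itself was at 943 and 952 CPM of unscaled totals in its stroke cells, against 1895 and 2166 in its sham cells. In the cluster led by Ccl4, Ccl3 and Lpl no member was called by edgeR (0.0146% of all genes were higher and 0.0876% lower) or by DESeq2, 6 of 78 had an unadjusted p under 0.05 (9.59% of all genes), the median was 0.18, and the mitochondrially encoded genes, with a median of 1.17, were not called either. The cycling cells, led by Top2a, had shares of 2.18% and 2.25% in the stroke pools, against 1.76% in male sham, and the Spp1 cluster had 2.36% and 2.41% in the stroke pools. DESeq2 called 33 members higher in the Cxcl10 cluster, 2 in the cluster with Siglech, 1 in the Sparc cluster and 0 in the other 3. Over all genes it called 293, 137 and 89 higher in the Cxcl10, Siglech and Sparc clusters. In the first P2ry12, Fos and Ccl4 clusters it called 33, 40 and 0. Of the mitochondrially encoded genes it called 6 in the first P2ry12 cluster and 9, 11, 10, 12 and 0 in the Fos, Siglech, Sparc, Cxcl10 and Ccl4 clusters. Library totals in place of TMM left 0 to 4 members higher in each of the clusters named here other than the Cxcl10 cluster, where 33 were. Over all genes they left 1 to 253 higher in those clusters, and 413 of 9551 in the Cxcl10 cluster. In the Fos cluster 2 members were then lower and 1 higher, and no other tested cluster had members lower. The members' median under library totals was -0.01 in the Fos cluster and -0.07 in the first P2ry12 cluster.

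**Figure D3:**
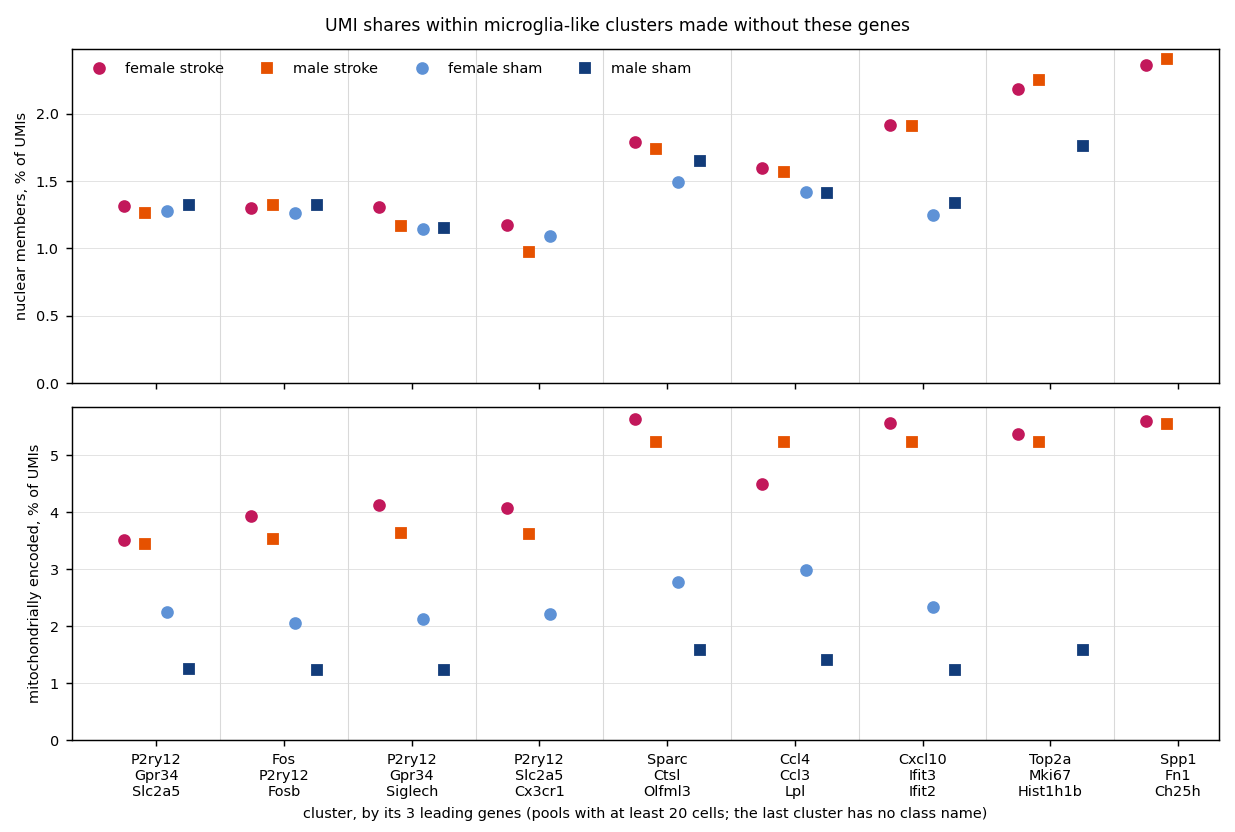
Share of UMIs from the nuclear members (top) and from the mitochondrially encoded genes (bottom) in each cluster made without these genes, 1 point per pool with at least 20 cells. In the clusters led by P2ry12 the top points of stroke and sham pools lie between 0.975% and 1.33%, while in the bottom panel the stroke points lie above the sham points in every cluster that has both.

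Ndufa1 and Cox6a2 differed in how they behaved within clusters. Ndufa1 was called higher by edgeR in 4 of the 6 clusters, with 151 and 171 CPM in stroke cells against 110 and 109 in sham cells of the first P2ry12 cluster (log2 change 0.57 ± 0.16, edgeR adjusted p = 0.0296) and 210 and 185 against 98.1 and 94.4 in the cluster with Siglech (log2 change 1.05 ± 0.14, edgeR adjusted p = 5.87e-05). The Ndufa1 call was lost under DESeq2 in the first P2ry12 cluster and the Fos cluster, and under library totals in the first P2ry12 cluster. Cox6a2 was called in the Cxcl10 cluster alone, with 90.4 and 83.6 CPM in stroke cells, against 35.8 and 14.6 in sham cells (log2 change 1.86 ± 0.36, edgeR adjusted p = 8.23e-06). Elsewhere its level varied widely between clusters. In the first P2ry12 cluster it was at 13.5 and 11.9 CPM in stroke cells, against 5.89 and 9.53 in sham cells, and in the Ccl4 cluster at 65.2 and 50.8 in stroke cells, against 87.7 and 51.1 in sham cells. Both values of stroke cells in the P2ry12 cluster were thus below all values of sham cells in the Ccl4 cluster.

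No member differed between the sexes by the test. Set side by side, both sexes had a median rise for both genomes, larger in females for the nuclear members and larger in males for the mitochondrially encoded genes. In the same edgeR fit 0 of 82 members were called higher or lower in male than in female microglia-like cells, where 0.158% of all genes were called higher and 0.136% lower. No member had an unadjusted p under 0.05, and DESeq2 called none. The log2 value of male over female was above 0 for 72 of the 82 members, with a median of 0.12, against 49.3% of all genes and a median of -0.003. Among the mitochondrially encoded genes 2 were lower in males, mt-Nd3 (log2 -0.75 ± 0.16, edgeR adjusted p = 0.00198) and mt-Atp8 (log2 -0.66 ± 0.15, edgeR adjusted p = 0.00506), which DESeq2 did not call. Within females the members' median log2 change after stroke was 0.92, and within males it was 0.67, with the female change larger in 71 of 82 members. The mitochondrially encoded median was 2.03 in males and 1.47 in females, and the male change was larger in all 13 genes. With the UMI minimum of the male sham pool set for every pool, the members' medians were 0.93 in females and 0.71 in males, and the mitochondrially encoded medians 2.07 in males and 1.52 in females. With 1 pool per sex and treatment the difference between the sexes' responses could not be tested, and sex and pool cannot be told apart.

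**Figure D4:**
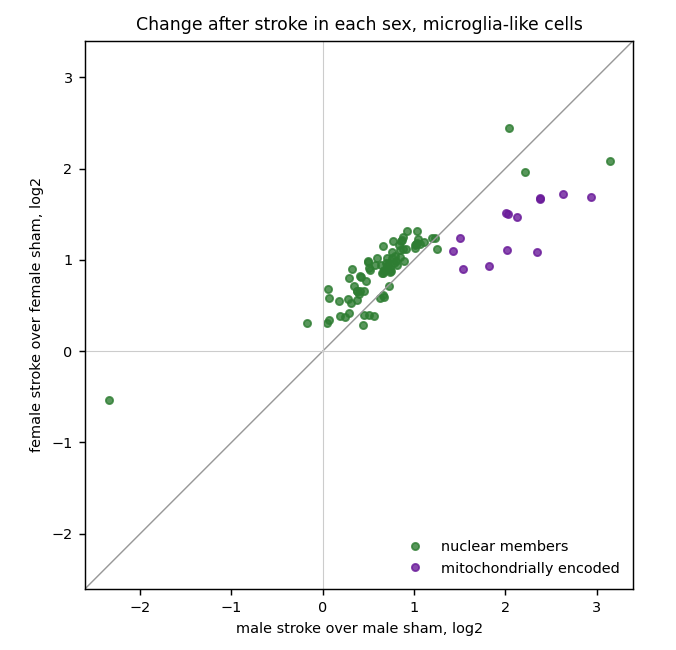
Log2 change after stroke in males (x axis) and females (y axis) for the 82 tested nuclear members and the 13 mitochondrially encoded genes in microglia-like cells; the diagonal marks equal change. Most nuclear members (71 of 82) lie above the diagonal and all 13 mitochondrially encoded genes below it.

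The medians of the other mitochondrial gene lists lay below that of the subunits. These lists were drawn up with earlier results of the data known, and their counts stand beside 22.7% of all tested genes higher and 21.8% lower. Of 49 tested assembly factors, which put the complexes together, 11 were higher, a share like that of all genes, and 5 lower, with a median log2 change of 0.02. Cmc2, which acts in complex IV assembly, had the largest rise (1.60 ± 0.15, edgeR adjusted p = 2.25e-23), followed by Uqcc2 of complex III assembly at 1.09, while Uqcc1, its partner, fell by 0.48 and Ndufaf4 of complex I assembly by 0.44. Of 23 electron carriers and exchangers 12 were higher and none lower, with a median of 0.43. Coq7 (1.64) and Pdss1 (1.01) of ubiquinone synthesis were at the top of those called. The ADP/ATP carrier Slc25a5 (0.47) and cytochrome c1, Cyc1 (0.43), were at the bottom. Cyc1 is a subunit of complex III, but its symbol is outside the rule for members, so the counts for that complex leave it out. Of 17 citric acid cycle genes 9 were higher and none lower, with a median of 0.35, from the citrate synthase Cs (0.71) and Ogdh of the oxoglutarate dehydrogenase (0.70) down to Pdha1 of pyruvate dehydrogenase (0.39) and Suclg1 of succinyl-CoA ligase (0.35). Of 22 regulators of mitochondrial transcription and biogenesis 2 were higher, the RNA-binding partners Slirp (0.93) and Lrpprc (0.52), and 8 were lower (2 with DESeq2), with a median of -0.18; Mterf3 fell by 0.57 and Mterf4 by 0.51. Of 23 import genes 13 were higher and 1 lower (Timm9, -0.37), with a median of 0.39, with Tomm7 of the outer membrane translocase (0.97) and Timm8a1 (0.93) highest and Timm22 lowest of those higher (0.36). Of 78 mitochondrial ribosomal protein genes 36 were higher and none lower, with a median of 0.28, Mrpl33 (1.20) and Mrpl28 (1.11) at the top and Mrpl58 (0.36) and Mrps28 (0.35) at the bottom of those called. Of 81 cytosolic ribosomal protein genes 79 were higher and none lower, with a median of 0.89, above that of the members, from Rps2 (1.67) and Rps19 (1.58) to Rpl30 (0.46) and Rpl10 (0.42). The hypoxia-induced complex IV partner Higd1a had a log2 change of 0.64 (edgeR adjusted p = 4.47e-05), and its relative Higd2a one of 0.29 (edgeR adjusted p = 0.0882). Under library totals the assembly factors had 5 higher and 15 lower, the mitochondrial ribosomal proteins 12 higher and 12 lower, and the electron carriers 7 higher and 3 lower.

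Across cell classes the members' share of UMIs was highest in choroid plexus or ependymal-like cells, whose epithelium is rich in mitochondria, at 5.99% and 6.97% in the stroke pools, against 6.88% and 7.07% in the sham pools. Monocyte-derived macrophage-like cells followed with 2.41% and 2.45% in the stroke pools, against 2.41% in male sham. These were different cells: 1041 and 549 of the 1085 and 571 stroke cells lay in a cluster led by Fabp5, Arg1 and Thbs1, which held 17 of the 42 male sham cells, and the other 25 male sham cells lay in one led by Ear2, Itgal and Pglyrp1. Dendritic cell-like cells had 2.23% and 2.32% in the stroke pools, against 1.53% and 1.77% in the sham pools. T or NK cell-like cells had 1.98% in female stroke, neutrophil-like cells 1.81% and 1.74% in the stroke pools, and border-associated macrophage-like cells 1.45% in male sham; the other pools of these classes had under 20 cells. Astrocyte-like cells had 1.19% in female sham and 1.59% in male sham, oligodendrocyte-like cells 0.387% and 1.25%, and neuron-like cells, at the bottom, 0.276% and 0.563%. Male sham cells of these last classes held much microglial RNA, with P2ry12 in 96.9% of astrocyte-like and 95.0% of oligodendrocyte-like cells, against 37.8% and 18.9% in female sham, so their levels are not those of pure classes. In female sham, cytosolic ribosomal protein genes took 0.746% of UMIs in neuron-like and 1.26% in oligodendrocyte-like cells, against 8.64% in microglia-like cells. In male sham they took 3.02% and 8.03%, against 9.03%. The low shares of these classes were thus not particular to the members, and their cause was not tested. Classes were clustered from the same cells, so these levels are a description without a test.

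**Figure D5:**
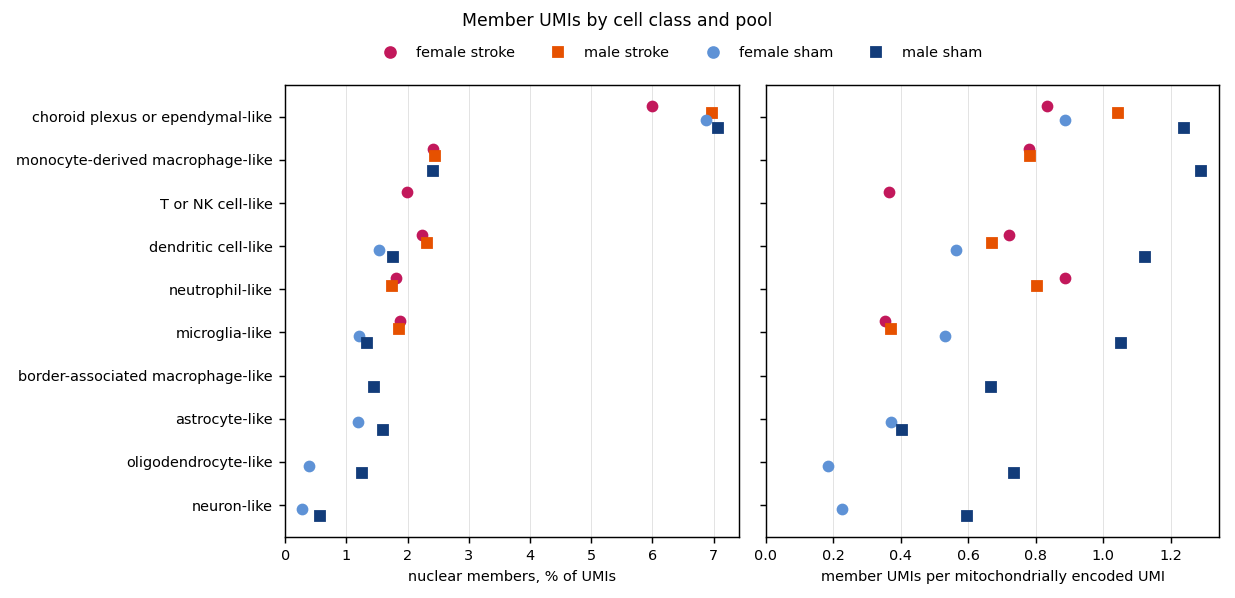
Share of UMIs from the nuclear members (left) and member UMIs per mitochondrially encoded UMI (right) in each cell class, 1 point per pool with at least 20 cells of the class. Choroid plexus or ependymal-like cells lie between 5.99% and 7.07%, apart from all other classes, and in the right panel male sham is the highest pool in every class where it stands beside others.

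Single members spread over the classes by very different amounts, in CPM of unscaled totals pooled over the pools with at least 20 cells. The lowest class was often the neuron-like cells, whose share of ribosomal protein UMIs was low as well. In complex I the widest range was that of Ndufa1, at 1298 in choroid plexus or ependymal-like and 27.8 in neuron-like cells, followed by Ndufa11 at 1073 and 25.9. In complex II it was Sdhc, at 216 and 12.6 in the same classes, with Sdhd next, at 145 and, in oligodendrocyte-like cells, 16.5. In complex III it was Uqcr11, at 1812 and 41.1, and next Uqcr10, at 1490 and 41.1. In complex V it was Atp5mpl, at 1265 and 29.2, and next Atp5g1, at 2327 and 63.3. Complex IV had isoforms that marked classes. Cox8b stood at 1051 in choroid plexus or ependymal-like cells and at 15.1 or less in every other class. Cox7a1 stood at 122 and 167 in choroid plexus or ependymal-like cells of the stroke pools, against 136 and 147 in the sham pools, and at 15.5 and 17 in monocyte-derived macrophage-like cells of the stroke pools. Cox6a2 was highest in the T or NK cell-like cells of female stroke, at 529 from 111 UMIs in 27 cells, followed by 65.2 and 60.5 in the Spp1 cluster of the stroke pools, and it was at 4.23 and 3.89 in those stroke pools among monocyte-derived macrophage-like cells, below microglia-like cells.

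Besides microglia-like cells, dendritic cell-like and choroid plexus or ependymal-like cells had at least 20 cells in every pool and could be tested. In dendritic cell-like cells, with 143 and 98 cells in the stroke pools against 53 and 95 in the sham pools, 38 of 78 tested members were higher and none lower, where 10.7% of all 8051 genes were higher and 9.59% lower. Their median log2 change was 0.54. The largest changes were those of Cox5a, a nuclear subunit of complex IV (1.23), Ndufs6 (1.10), Sdhc (1.03), Ndufa1 (1.02) and Atp5md, a small subunit of complex V (1.0). Of the mitochondrially encoded genes 5 of 13 were higher. P2ry12 was found in 27.3% and 18.4% of the dendritic cell-like cells of female and male stroke, against 45.3% and 47.4% in female and male sham. Its level was 37.1 and 57.8 CPM of unscaled totals in the stroke pools, against 223 and 437 in the sham pools. The part of microglial RNA in the members' change in these cells was not tested. DESeq2 called 10 members. Fewer than 38 were also called when either stroke pool was left out, in fits that lacked the sex term as well. In choroid plexus or ependymal-like cells, with 100 and 46 cells in the stroke pools against 111 and 537 in the sham pools, edgeR called 0 of 80 members, and 0.0% of all 9793 genes in either direction. The members' median log2 change was -0.31, 17 had an unadjusted p under 0.05 (7.33% of all genes), and DESeq2 called none. Both stroke pools lay below both sham pools in 57 of the 80 (21.2% of all genes), for instance in Ndufa11, with 738 and 899 CPM after stroke, against 1127 and 1254 in sham (log2 change -0.55 ± 0.15, edgeR adjusted p = 0.612). In a fit without the male stroke pool the outcome differed, but that fit also lacked the sex term and kept a single stroke pool. The difference cannot be laid to that pool alone.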

How the data were processed

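Single-cell RNA sequencing counts were deposited as 1 filtered matrix of UMI counts per gene and barcode for each of 4 pools; the matrices came from Cell Ranger, version 6.1.2 per the file headers and 7.1.0 per the submitters' processing notes, with build mm10. Reads were not used here. Depth was 29581392 to 66072270 UMIs per pool, and intervals cover counting error only. The members and all lists and tests were chosen with earlier results of these data known.

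Barcodes under 500 genes or 1000 UMIs, or over 10% mitochondrially encoded UMIs, were dropped. Counts were log-normalized to 10000 per cell and clustered with scanpy 1.11.5 (2000 variable genes, 30 principal components, 15 neighbours, Leiden resolution 0.8). A cluster was named "-like" from at least 3 fixed markers of a class, each in at least 25% of its cells. The mean log2 level of that class's markers also had to exceed that of the other clusters by more than 0.3, and the class with the highest mean was taken. A cluster stayed unnamed if its 10 leading genes held more markers of another class. No doublet caller was run; 284 kept cells held over 40000 UMIs. Symbols were matched to an annotation for 32235 of 32286 features and all 85 members.

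Counts were summed per pool and class (at least 20 cells per pool) and tested with edgeR 4.0.16 (filterByExpr, TMM, quasi-likelihood test with terms for treatment and sex, Benjamini-Hochberg threshold 0.05). This fit leaves 1 residual degree of freedom among pools, so the spread was shared over all genes. SEs follow from the log2 change and the F statistic (log2 change over the root of F). Each pool mixes 4 mice, so the p-values do not measure the spread between mice. With sex as a term, the spread left is how far the change after stroke differs between the female and male pools. That spread was taken from all genes together, not from each gene alone. The replicate numbers were the 2 sexes, which pair a stroke with a sham pool, and sex is a term in the test for that reason. The test was also run on simulated counts drawn with the spread of this same fit. Such a run cannot show whether that spread is right for these pools. Named genes were, by complex, the 3 highest and 3 lowest changes, all of complex II, the isoform families, the mitochondrially encoded genes, the members with the widest range over classes, and the 2 highest and lowest called genes of each other list.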

Additional observations from a re-analysis of the deposited data

Results flagged for a closer look

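Ndufs7, the core subunit of complex I next to the ubiquinone site, moved in opposite directions in the sexes in microglia-like cells. Its log2 change of stroke over sham was 0.306 in females and -0.173 in males, from 114 and 92.5 CPM in female stroke and female sham and from 117 and 132 CPM in male stroke and male sham. With 1 pool per sex and treatment the difference was not tested. In the cluster led by Fos, P2ry12 and Fosb it was at 59.7 and 104 CPM in the stroke pools, against 123.1 and 140.4 in the sham pools, lower in both sexes.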

How the results depend on the processing

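Without the sex term, that is with no replicate block, 75 members were higher and 1 lower, with a median log2 change of 0.78 (mitochondrially encoded genes 1.72). Leaving out 1 pool gave 54 to 81 members higher and 0 to 2 lower (75 and 1 with all pools), medians of 0.696 to 0.971 for members and 1.465 to 2.122 for mitochondrially encoded genes, 9 to 52 members higher in dendritic cell-like cells, and 0 to 1 higher and 0 to 59 lower in choroid plexus or ependymal-like cells. Members lower numbered 0 under DESeq2, in thinned cells, and in thinned cells without cycling cells under either scaling. The last of these, with library totals and chosen after seeing the data, gave 32 of 80 tested members higher, against 803 of all 11675 genes. The members' median (0.79) was 0.529 under library totals, 0.603 in thinned cells, 0.468 without cycling cells and 0.242 without them under library totals. The mitochondrially encoded median was 1.15 at a limit of 5%, and DESeq2 called 10 members in dendritic cell-like cells. Under library totals the calls were 5 higher and 15 lower for assembly factors, 7 and 3 for electron carriers, 3 higher for citric acid cycle genes, 1 higher for biogenesis regulators, 7 and 4 for import, 12 and 12 for mitochondrial and 1 lower for cytosolic ribosomal proteins. Under DESeq2 they were 7 and 0 for assembly factors, 5 higher for the citric acid cycle, 2 lower for regulators and 0 lower for import. The mean member share after stroke (1.87%) was 1.91% with the male sham UMI minimum, 1.75% and 1.84% with a mitochondrial limit of 5% and none, 1.68% thinned, 1.53% thinned without cycling cells, 2.17% without ribosomal (sham 1.39%) and 1.97% without mitochondrial genes, and 2.00% with the Spp1 cluster. Except without ribosomal or mitochondrial genes, these settings had female sham at 1.19% to 1.23% and male sham at 1.31% to 1.35%. Member UMIs per mitochondrially encoded UMI after stroke (0.363) were 0.5001, 0.322, 0.350, 0.327 and 0.380 at a limit of 5%, with none, thinned, thinned without cycling cells and with the Spp1 cluster. At the limit of 5% female sham was at 0.558 and male sham at 1.05. In the other settings female sham was at 0.522 to 0.549 and male sham at 1.04 to 1.05. The share in monocyte-derived macrophage-like cells was 2.49% without mitochondrial genes. Of 898 values of single genes under the alternatives 818 kept direction and side of the threshold, 50 lost and 13 gained a call, and 17 changed sign. These were Ndufs7 (-0.192 under library totals, -0.0207 at a limit of 5%, -0.0135 thinned, -0.0886 without cycling cells, -0.314 with library totals as well, -0.193 without female sham), Ndufc2 and Ndufs3 (-0.0536 and -0.0795 under library totals, -0.222 and -0.131 without cycling cells as well), and in that last setting Atp5g1 (-0.000523), Ndufa11 (-0.146), Sdhb (-0.201), Sdhd (-0.0713), Uqcrb (-0.066), Uqcrc2 (-0.103) and Uqcrfs1 (-0.132); the cause was not tested. Depth limits Cox4i2, Cox8b and the classes with under 100 cells in a pool.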

Other observations

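Members with a short transcript changed more. The 48 tested members whose longest coding transcript is at most 1000 bases had a median log2 change of 0.89 after stroke in microglia-like cells, and the 34 longer ones 0.63. Spearman's correlation between length and log2 change was -0.32 over the 82 members, which share libraries and depth. Over the 12320 tested genes with a length it was -0.20, with medians of 0.52 for the 692 short and -0.05 for the 11628 longer genes. Genes are not independent replicates, and the part of length in the members' change was not tested.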
